A study of Mus musculus with 11 samples.

Results

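The 9 small leucine-rich proteoglycan genes Dcn, Bgn, Aspn, Lum, Fmod, Prelp, Omd, Ogn and Podn were chosen by name from the 19962 genes measured, and each was read by 1 probe in all 11 regions. The rule itself used no measured value, but the members were chosen with earlier results of these data known. Transcripts were counted with the GeoMx platform, which collects barcoded probes from a chosen patch of a tissue section, in fixed frozen mammary glands of naive periostin lineage tracing mice. Within each region the ZsGreen-positive cells, those that express or once expressed periostin, were collected. Of the 11 regions, 6 were labelled Pdpn-adjacent (regions 2, 3, 4, 7, 8 and 11), near lymphatic vessels stained for podoplanin. The other 5 were labelled SMA-adjacent (regions 1, 5, 6, 9 and 10), near ducts and blood vessels stained for smooth muscle actin, and the label does not say which of these structures a region lay beside. All regions came from the same kind of untreated gland. The driver and reporter alleles, the strain, and the age and sex of the animals are not given in the sources used here. The glands were those of 3 mice and the labels do not say which mouse gave which region, so some regions share a mouse and p-values over regions are too small.

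Small leucine-rich proteoglycans are secreted proteins built from leucine-rich repeats that bind collagen fibrils and set their diameter and spacing. Many also carry sulfated sugar chains and hold growth factors such as transforming growth factor beta in the matrix. In the mammary gland, as in most connective tissue, they are made mainly by fibroblasts. Decorin (Dcn) and biglycan (Bgn) carry chondroitin or dermatan sulfate chains, and asporin (Aspn) is their relative with a run of aspartate residues. Lumican (Lum), fibromodulin (Fmod), prolargin (Prelp) and osteomodulin (Omd) form the branch in which several members carry keratan sulfate. Osteoglycin (Ogn) and podocan (Podn) belong to further branches.

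Depth differed between regions and between the groups. Total counts ran from 22757 to 2271664 in Pdpn-adjacent regions and from 760761 to 3086323 in SMA-adjacent regions. Pdpn-adjacent regions 2, 3 and 11 held fewer than 100000 counts each. No value in the table was below 1, and a count of 1 stood at 37.5, 12.3 and 34.2 CPM (counts scaled by library size) in those 3 regions. An unseen transcript could still amount to 3 counts there, which is 112, 37.0 and 103 CPM. Levels were also read as multiples of the geometric mean of the 210 negative-control probes, which match no mouse transcript, and a gene was taken as above the floor in a region where it exceeded the mean of those probes by over 2 SDs on the log2 scale. In regions 2 and 11 that floor was 1.50 and 1.98 counts, so a count of 2 passed it. Acta2, which encodes smooth muscle actin, was at 0.952 to 10.0 times background in Pdpn-adjacent regions, against 12.9 to 87.5 times background in SMA-adjacent regions. Pdpn transcript was above the floor in 0 of 6 Pdpn-adjacent and 0 of 5 SMA-adjacent regions, and Postn in 2 of 6 and 2 of 5, so these transcripts say little about the labels. Fibroblast markers had 7 of 11 measured genes above the floor in most regions of at least 1 group, and lymphatic endothelial markers had 0 of 8, with a mean level of 0.891 to 1.60 times background in Pdpn-adjacent and 1.34 to 1.63 in SMA-adjacent regions.

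Members were read at very different heights over background. Dcn, Bgn, Prelp, Podn and Lum were above the floor in at least 5 regions each. Of the 4 others, Fmod was above it in 2 of 6 Pdpn-adjacent and 1 of 5 SMA-adjacent regions, Ogn in 0 of 6 and 2 of 5, and Aspn in 0 of 6 and 1 of 5. Omd was above it in 0 of 6 and 0 of 5. By region, the deeper Pdpn-adjacent regions 4, 7 and 8 had 3, 4 and 5 of the 9 members above the floor, and the shallow regions 2, 3 and 11 had 1, 0 and 2. In SMA-adjacent regions 1, 5, 6, 9 and 10 the number was 5, 4, 5, 7 and 7. In region 2, 8 of the 9 members stood at the lowest count of 1, and in region 11, 7 did. Group means and permutation tests still gave the shallow regions the same weight as regions 4, 7 and 8. The difference in mean log2 CPM was -1.85 for Dcn and -1.50 for Prelp over all 11 regions. Over the 8 regions above 100000 counts it was -0.43 for both. It was also less negative there for Bgn, Lum and Podn, and more negative for Ogn, Aspn and Omd. For Fmod it changed sign, from 0.13 over all 11 regions to -0.32 over the 8. Levels are not ranked between genes here, because probes differ in how well they capture their transcript.

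**Figure D1:**
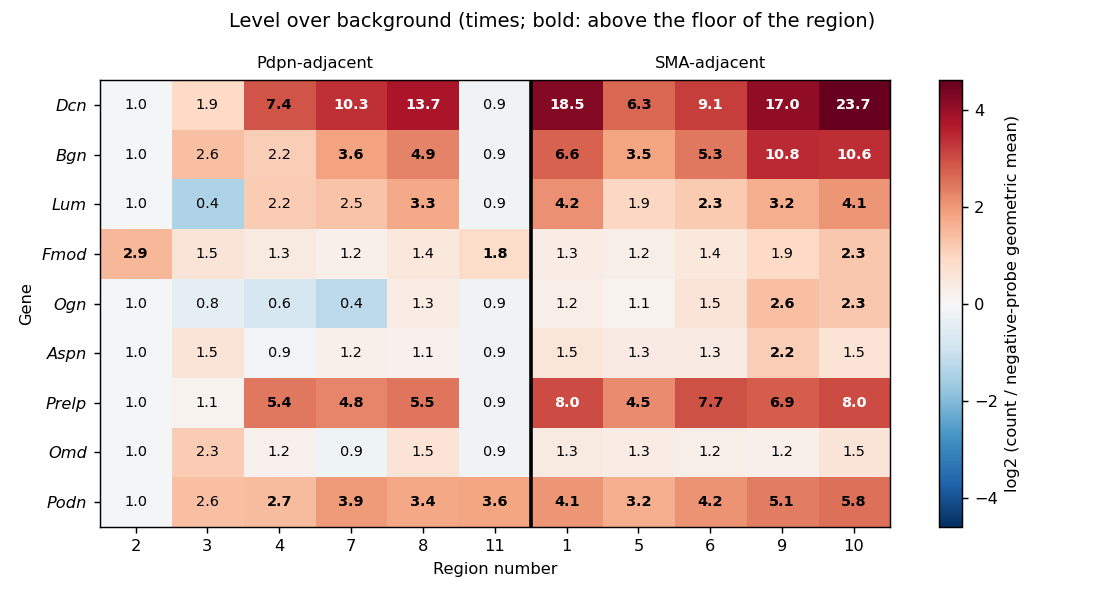
Level of each member over background, as the count divided by the geometric mean of the negative-control probes of that region (number in each cell, colour on a log2 scale), for the 6 Pdpn-adjacent and 5 SMA-adjacent regions. Bold numbers lie above the floor of the region. Dcn reached 13.7 times background in Pdpn-adjacent region 8 and 23.7 times in SMA-adjacent region 10, while Omd is never above the floor.

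All 9 members had a negative log2 fold change for Pdpn-adjacent minus SMA-adjacent regions, as did 48.8% of all tested probes. For 3 members (Ogn, Bgn and Dcn) it was below -1, as for 0.286% of all tested probes. Of the 9, 0 passed an adjusted p of 0.05 over the 19935 probes tested with edgeR. In that fit 2 probes (0.01%) passed, both higher, and 0 (0%) were lower. Before adjustment, 6 of the 9 members (Ogn, Bgn, Aspn, Prelp, Dcn and Podn) were lower at a p under 0.05, against 3.19% of all tested probes, and 0 were higher, against 2.84%. The median log2 fold change of the 9 members was -0.61 and that of all tested probes 0.01. Among the 2195 probes above the floor in at least 5 regions, 71.3% had a log2 fold change below 0, their median was -0.12, and 5.65% were lower at an unadjusted p under 0.05. Since regions share mice, these p-values are too small. The members were chosen with earlier results of these data known, so the counts beside these shares are descriptions. DESeq2 called 1 member, Bgn (log2 fold change -1.31, adjusted p = 0.0493). Of all probes to which DESeq2 gave an adjusted p, 0.547% were lower at an adjusted p under 0.05. The count of members at an unadjusted p under 0.05 was 3 without region 3 or without region 4, and 3 without regions 2, 3 and 11. In a bulk sample such as a region, fewer cells that make a transcript and less transcript per cell cannot be told apart.

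**Figure D2:**
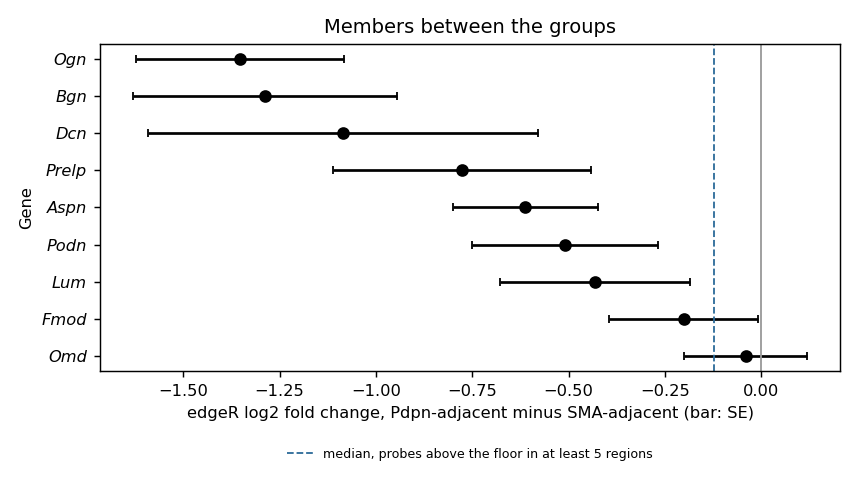
edgeR log2 fold change of each member, Pdpn-adjacent minus SMA-adjacent regions, with its standard error (SE). The dashed line is the median of probes above the floor in at least 5 regions, at -0.12, and the members run from -1.35 for Ogn to -0.04 for Omd.

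Biglycan binds collagen and growth factors and, when released from matrix, can act as a danger signal through Toll-like receptors. Bgn was at 72.3, 116 and 126 CPM in Pdpn-adjacent regions 4, 7 and 8, and at 37.5, 86.4 and 34.2 CPM in regions 2, 3 and 11, on counts of 1, 7 and 1. In SMA-adjacent regions 1, 5, 6, 9 and 10 it was at 198, 120, 170, 321 and 309 CPM. Of the 6 Pdpn-adjacent regions 5 lay below every SMA-adjacent one, and region 8 alone lay above SMA-adjacent region 5. The means were 78.8 ± 38.6 CPM (SD, n = 6) and 224 ± 88.2 CPM (SD, n = 5). The log2 fold change was -1.29 ± 0.34 SE (edgeR adjusted p = 0.237), with an exact two-sided permutation p of 0.0108 on log2 CPM, where the smallest p that 6 against 5 regions allow is 0.00216. Across all tested probes 3.88% had a permutation p under 0.05 in the lower direction, and 5 of the 9 members did (Bgn, Ogn, Prelp, Aspn and Podn). On the level over background the same 5 members did, where 4.41% of all probes did. Both p-values are too small, as some regions come from the same mouse. Bgn was above the floor in 2 of 6 Pdpn-adjacent and 5 of 5 SMA-adjacent regions. On GRCm38.p6 its probe covers 73490848 to 73490883 of chromosome X, within the Bgn gene (73483601 to 73495936).

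Decorin, the founding member, limits the sideways growth of collagen fibrils and binds transforming growth factor beta. Dcn was at 245, 331 and 355 CPM in Pdpn-adjacent regions 4, 7 and 8 and at 37.5, 61.7 and 34.2 CPM in regions 2, 3 and 11. The SMA-adjacent regions 1, 5, 6, 9 and 10 stood at 552, 215, 290, 507 and 690 CPM. The shallow regions 2, 3 and 11 lay below every SMA-adjacent region even at their limit of 3 counts for regions 2 and 11 and at the 5 counts read in region 3. Regions 4, 7 and 8 overlapped SMA-adjacent regions 5 and 6. The log2 fold change was -1.09 ± 0.51 SE (edgeR adjusted p = 0.801, exact permutation p = 0.0519), and it was -0.55 without regions 2, 3 and 11, a smaller value by over 1.5 times. Shared mice again make the p-values too small. Dcn held 31.0%, 35.9% and 37.8% of the 9 members' counts in Pdpn-adjacent regions 4, 7 and 8, with 95% Wilson intervals of 28.9 to 33.1%, 29.5 to 42.7% and 32.4 to 43.6%. In the SMA-adjacent regions its share ran from 25.9% in region 5 (24.2 to 27.5%) to 39.6% in region 1 (36.7 to 42.5%). The intervals cover counting error only, and the shares include background counts.

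Bgn and Dcn did not keep the same proportion in every region. The Bgn count was 0.295, 0.352 and 0.355 of the Dcn count in Pdpn-adjacent regions 4, 7 and 8. It was 0.358, 0.557, 0.586, 0.634 and 0.448 of it in SMA-adjacent regions 1, 5, 6, 9 and 10. Each of the 3 deeper Pdpn-adjacent regions was thus under the lowest SMA-adjacent one, region 1, by a narrow gap. In regions 7 and 8 the ratio rests on Bgn counts of 25 and 38 and Dcn counts of 71 and 107. No counting interval is given for these ratios. Bgn itself was below the floor in region 4. In the shallow regions 2, 3 and 11 the ratio was 1, 1.4 and 1, above every SMA-adjacent value. It rests there on Bgn counts of 1, 7 and 1 and Dcn counts of 1, 5 and 1. The Bgn and Dcn pair was chosen after its values were seen and was not tested, and no share over other pairs is given.

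Asporin binds collagen and calcium and also binds transforming growth factor beta. Aspn was at 30.1, 37.2 and 29.9 CPM in Pdpn-adjacent regions 4, 7 and 8, on 70, 8 and 9 counts. It was at 37.5, 49.4 and 34.2 CPM in regions 2, 3 and 11, on 1, 4 and 1 counts. In SMA-adjacent regions 1, 5, 6, 9 and 10 it was at 43.5, 44.5, 41.2, 65.3 and 45.1 CPM. Regions 4, 7 and 8 lay below every SMA-adjacent one, and region 3 did not. A single count stood at 4.66 CPM in region 7, which read 37.2 CPM against 41.2 CPM in SMA-adjacent region 6. The single counts in regions 2 and 11 allow up to 112 and 103 CPM, above every SMA-adjacent value. All these levels are near background, at 0.889 to 1.50 times background in Pdpn-adjacent regions, against 1.29 to 2.19 times background in SMA-adjacent regions. On the log2 scale the fold change was -0.61 ± 0.19 SE (edgeR adjusted p = 0.468, exact permutation p = 0.0411), and it was -0.29 without regions 4 and 8 and -0.36 in limma-voom, smaller by over 1.5 times. Again, shared mice make these p-values too small.

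**Figure D3:**
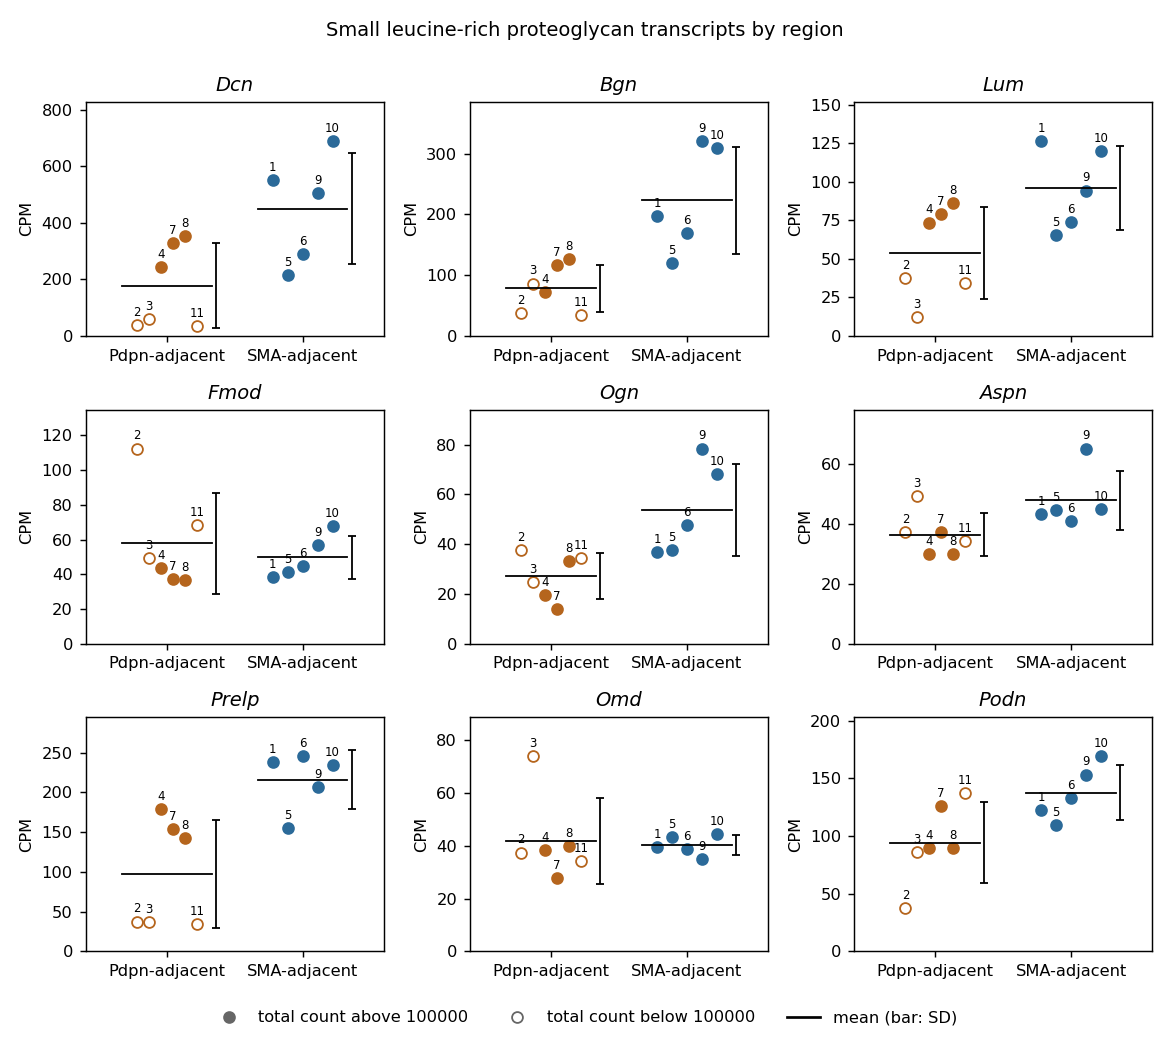
CPM of the 9 members in each of the 6 Pdpn-adjacent and 5 SMA-adjacent regions, numbered by region, with the mean and SD of each group. Open circles are regions with total counts below 100000, where a single count stands at 12.3 to 37.5 CPM. For Bgn and Prelp 5 of 6 Pdpn-adjacent regions lie below every SMA-adjacent region.

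Osteoglycin, a small member first studied in bone matrix, had the smallest p of the 9. Ogn was at 19.4, 14.0 and 33.2 CPM in Pdpn-adjacent regions 4, 7 and 8, on 45, 3 and 10 counts. Regions 2, 3 and 11 stood at 37.5, 24.7 and 34.2 CPM, on 1, 2 and 1 counts. SMA-adjacent regions 1, 5, 6, 9 and 10 stood at 36.9, 37.8, 47.6, 78.4 and 68.0 CPM. Regions 3, 4, 7 and 8 read below every SMA-adjacent value. Region 3 did so on 2 counts, and 3 counts there would stand at 37.0 CPM, above SMA-adjacent region 1. The single counts in regions 2 and 11 cannot be placed, as they allow up to 112 and 103 CPM. Pdpn-adjacent regions read 0.437 to 1.28 times background, within the spread of the negative controls, and SMA-adjacent regions read 1.11 to 2.63 times. The log2 fold change was -1.35 ± 0.27 SE (edgeR adjusted p = 0.0702, exact permutation p = 0.00649), and by edgeR p it was number 4 among the 9726 probes with a negative fold change. Without SMA-adjacent region 5 it passed, at -1.51 (edgeR adjusted p = 0.00643), and over the 11 fits that each left out 1 region its adjusted p ran from 0.00643 to 0.682. It also passed when 1 was subtracted from every count (-1.49, edgeR adjusted p = 0.000153), an alternative chosen after the data were seen. In DESeq2 its adjusted p was not given, as its counts were too low for that tool's filter. With mice shared between regions, p-values here are too small.

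Ogn, Omd and Aspn lie side by side on chromosome 13 with no other coding gene between them, Aspn and Omd 14.9 kb apart and Omd and Ogn 15.4 kb apart on GRCm38.p6. The probes lie at 49551667 to 49551707 (Aspn), 49589509 to 49589558 (Omd) and 49609190 to 49609233 (Ogn). Ecm2, a leucine-rich relative, lies 11.7 kb before Aspn and had a log2 fold change of -0.10. Osteomodulin, which binds collagen in mineralising tissue, was not read above the floor in any of the 11 regions. Omd was at 38.3, 27.9 and 39.9 CPM in Pdpn-adjacent regions 4, 7 and 8 and at 34.9 to 44.3 CPM in SMA-adjacent regions, a fold change of -0.04 ± 0.16 SE on the log2 scale (edgeR adjusted p = 1.00, exact permutation p = 0.989). Its highest value, 74.0 CPM, was in Pdpn-adjacent region 3, on 6 counts. The difference in fold change between Omd and its neighbours was not tested.

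The sequences around the starts of these 3 neighbours, and of Bgn for contrast, are shown so that genes of 1 locus can be read beside each other. They are from RefSeq on GRCm38.p6, 250 bases before to 50 after the start, on the plus strand of the genome, which is the strand of all 4 genes. Capitals mark the letters TATAAA or GGGCGG on either strand.
Aspn, chr13:49544193-49544492: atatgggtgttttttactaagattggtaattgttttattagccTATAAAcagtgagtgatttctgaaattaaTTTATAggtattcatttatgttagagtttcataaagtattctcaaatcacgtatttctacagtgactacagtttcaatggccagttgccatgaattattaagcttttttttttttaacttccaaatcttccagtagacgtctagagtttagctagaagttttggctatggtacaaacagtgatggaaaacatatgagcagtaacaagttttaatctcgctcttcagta
Omd, chr13:49582212-49582511: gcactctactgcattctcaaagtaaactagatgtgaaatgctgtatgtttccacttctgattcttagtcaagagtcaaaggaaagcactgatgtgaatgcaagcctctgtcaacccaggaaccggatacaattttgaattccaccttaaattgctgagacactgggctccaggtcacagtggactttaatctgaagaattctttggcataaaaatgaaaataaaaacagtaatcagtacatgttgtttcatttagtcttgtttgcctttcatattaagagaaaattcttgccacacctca
Ogn, chr13:49607765-49608064: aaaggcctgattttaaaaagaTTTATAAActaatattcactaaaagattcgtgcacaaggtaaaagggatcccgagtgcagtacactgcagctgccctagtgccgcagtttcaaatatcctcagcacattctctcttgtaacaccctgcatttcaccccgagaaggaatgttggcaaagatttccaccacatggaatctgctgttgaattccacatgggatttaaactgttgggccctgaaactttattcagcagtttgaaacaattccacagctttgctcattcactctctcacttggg
Bgn, chrX:73483351-73483650: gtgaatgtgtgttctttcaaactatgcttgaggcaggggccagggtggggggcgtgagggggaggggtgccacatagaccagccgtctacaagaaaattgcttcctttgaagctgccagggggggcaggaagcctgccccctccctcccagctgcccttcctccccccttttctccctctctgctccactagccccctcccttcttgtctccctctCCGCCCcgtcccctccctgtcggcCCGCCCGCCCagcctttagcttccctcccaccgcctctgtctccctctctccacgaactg
TATAAA was found in the Aspn window on the plus strand, 207 bases before the start, and on the minus strand, 178 before. In the Ogn window it was found on both strands, overlapping, 227 and 229 bases before the start. The Omd window held neither motif. The Bgn window held GGGCGG on the minus strand 3 times, 34, 10 and 6 bases before the start, where the marked runs read as its reverse complement. Of 32851 promoter windows of 300 bases, 13.6% hold TATAAA and 35.7% GGGCGG on either strand. The windows were 31.0% (Aspn), 37.7% (Omd), 42.3% (Ogn) and 63.7% (Bgn) G or C. Windows were found for 7 of the 9 members, and Dcn and Lum are named only. A match is a run of letters and no evidence that a factor binds.

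**Figure D4:**
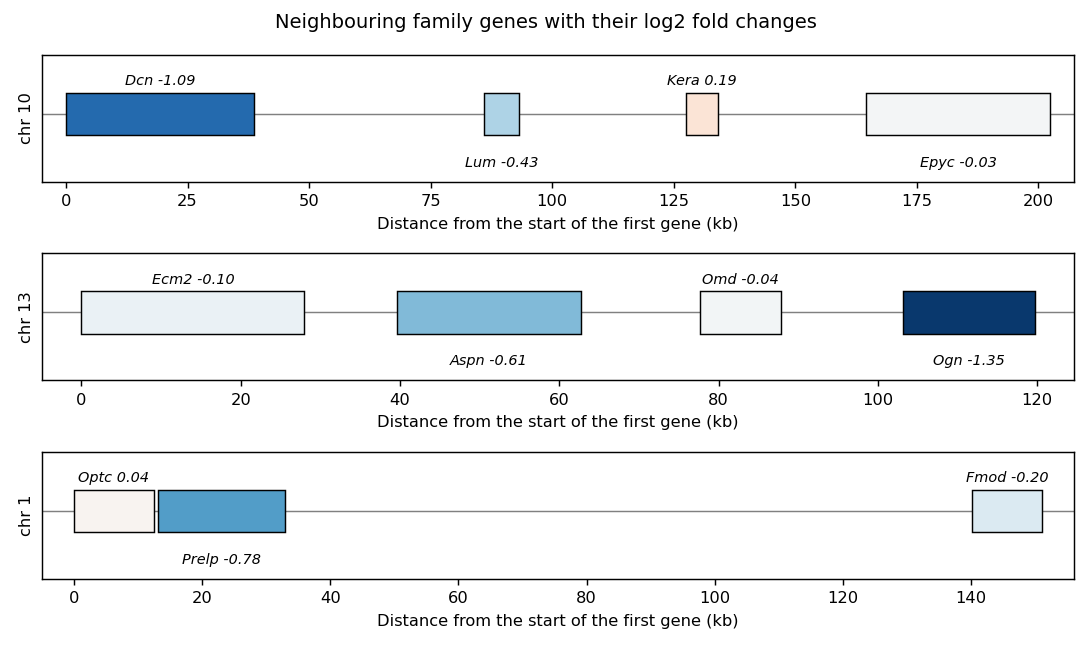
Family genes that neighbour each other on chromosomes 10, 13 and 1, drawn to scale by distance in kb, with the edgeR log2 fold change of each (Pdpn-adjacent minus SMA-adjacent) beside its name and as its colour. Ogn, at -1.35, and Omd, at -0.04, lie 15.4 kb apart.

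Lumican, which organises collagen fibrils in skin and cornea, is the neighbour of Dcn, 47.3 kb away on chromosome 10. Lum was at 73.6, 79.1 and 86.4 CPM in Pdpn-adjacent regions 4, 7 and 8 and at a count of 1 in each of regions 2, 3 and 11. Levels in SMA-adjacent regions 1, 5, 6, 9 and 10 were 126, 65.4, 73.9, 94.3 and 120 CPM. The deeper Pdpn-adjacent regions lay within the SMA-adjacent range. Its log2 fold change was -0.43 ± 0.25 SE (edgeR adjusted p = 0.918, exact permutation p = 0.0584), and it was -0.27 without regions 2, 3 and 11 and -0.80 without regions 4 and 8. These p-values are too small for the reason given, that mice are shared.

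Prolargin anchors basement membranes to the collagen beneath them through its heparan-binding end. Prelp was at 179, 154 and 143 CPM in Pdpn-adjacent regions 4, 7 and 8 and at 37.5, 37.0 and 34.2 CPM in regions 2, 3 and 11, on 1, 3 and 1 counts. In SMA-adjacent regions 1, 5, 6, 9 and 10 it was at 238, 155, 246, 207 and 234 CPM. Of the Pdpn-adjacent regions 5 of 6 lay below every SMA-adjacent one, and region 4 lay above SMA-adjacent region 5. The means were 97.3 ± 67.9 CPM (SD, n = 6) and 216 ± 37.2 CPM (SD, n = 5). The log2 fold change was -0.78 ± 0.33 SE (edgeR adjusted p = 0.761, exact permutation p = 0.0238), and -0.43 without regions 2, 3 and 11. Shared mice make these p-values too small.

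Fibromodulin, which binds collagen and takes part in its crosslinking, lies 107 kb from Prelp on chromosome 1. Fmod was at 43.4, 37.2 and 36.5 CPM in Pdpn-adjacent regions 4, 7 and 8 and at 38.2 to 68.0 CPM in SMA-adjacent regions. Its highest value, 112 CPM, was in Pdpn-adjacent region 2 and rests on 3 counts. Apart from regions 2 and 11 in the Pdpn-adjacent group and region 10 in the SMA-adjacent group, it stood below the floor. Its log2 fold change was -0.20 ± 0.19 SE (edgeR adjusted p = 0.999, exact permutation p = 0.725), and the mean log2 CPM differed in the other direction, by 0.13. As mice are shared, the p-values are too small.

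Podocan was first found in the kidney glomerulus and is made by smooth muscle cells of vessel walls as well as by fibroblasts. Podn was at 89.9, 126 and 89.7 CPM in Pdpn-adjacent regions 4, 7 and 8, and at 37.5, 86.4 and 137 CPM in regions 2, 3 and 11 on 1, 7 and 4 counts. Against these, SMA-adjacent regions 1, 5, 6, 9 and 10 stood at 123, 109, 133, 153 and 169 CPM. It was above the floor in 4 of 6 and 5 of 5 regions. Regions 3, 4 and 8 read below every SMA-adjacent one, and the 1 count in region 2 allows up to 112 CPM, above SMA-adjacent region 5. Its log2 fold change was -0.51 ± 0.24 SE (edgeR adjusted p = 0.811, exact permutation p = 0.0476). Here too the p-values are too small because regions share mice. On GRCm38.p6 the Podn probe covers 108018832 to 108018869 of chromosome 4, and the others not yet placed lie on chromosome 10 at 97506528 to 97506567 (Dcn) and 97568252 to 97568301 (Lum), and on chromosome 1 at 133914580 to 133914617 (Prelp) and 134040623 to 134040658 (Fmod).

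No member separated the groups completely, where 0.391% of all tested probes had every Pdpn-adjacent region below every SMA-adjacent one. In either direction 0 members and 0.828% of all probes did so. Among the 8 regions above 100000 counts, each of the 3 Pdpn-adjacent values was under the lowest of the 5 SMA-adjacent values for Ogn and Aspn. In those 8 regions the same held for 2.02% of all tested probes, and the reverse for 2.39%. Ogn averaged 22.2 ± 9.93 CPM (SD, n = 3) and 53.7 ± 18.6 CPM (SD, n = 5), and Aspn 32.4 ± 4.18 CPM (SD, n = 3) and 47.9 ± 9.82 CPM (SD, n = 5). Both gave an exact permutation p of 0.0179, the smallest that 3 against 5 regions allow, and shared mice make it too small. Neither was above the floor in any Pdpn-adjacent region. Pdpn-adjacent regions 7 and 8, with totals of 225875 and 301401, held fewer counts than any SMA-adjacent region. In these 2 regions Ogn rested on 3 and 10 counts and Aspn on 8 and 9. For Bgn the same comparison gave 105 ± 28.7 CPM (SD, n = 3) and 224 ± 88.2 CPM (SD, n = 5; exact permutation p = 0.0714). For Dcn it gave 310 ± 58.0 CPM (SD, n = 3) and 451 ± 195 CPM (SD, n = 5; exact permutation p = 0.357). The exact permutation p was 0.0536 for Prelp, 0.107 for Podn, 0.196 for Fmod, 0.214 for Omd and 0.375 for Lum.

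SMA-adjacent regions were not alike. Region 5 held the lowest value of the SMA-adjacent group for 5 members (Dcn, Bgn, Lum, Prelp and Podn), and regions 9 and 10 held the highest for 7 (3 in region 9 and 4 in region 10). Region 5 held 3086323 counts, the most of all regions. It was also the SMA-adjacent region with the smallest share of probes above the floor, 8.79%, and regions 9 and 10 had 19.1% and 19.2%. The part of this difference in the members' values was not tested.

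The members' level is set here beside that of fibroblast and blood endothelial markers. The mean level of the 9 members was 2.66, 3.20 and 4.02 times background in Pdpn-adjacent regions 4, 7 and 8, and 5.20, 2.71, 3.78, 5.65 and 6.67 times in SMA-adjacent regions 1, 5, 6, 9 and 10. The mean of 11 fibroblast markers was 3.71, 6.22 and 7.28 times background in those Pdpn-adjacent regions and 9.31, 4.61, 7.39, 9.74 and 13.1 times in those SMA-adjacent regions. The mean of 10 blood endothelial markers was 1.55, 2.11 and 3.28 times background in those Pdpn-adjacent regions and 3.58, 1.70, 2.00, 3.62 and 3.98 times in those SMA-adjacent regions. Region 10 was highest in all 3 measures, and regions 4 and 5 were the lowest of the 8. Pdpn-adjacent region 8 and SMA-adjacent region 6 were close in the members and the fibroblast markers. When each member was divided by the fibroblast mean of its region, the ranges of the deeper Pdpn-adjacent and the SMA-adjacent regions overlapped for 8 of the 9. The exception was Bgn, at 0.585 to 0.667 of the fibroblast mean in Pdpn-adjacent regions 4, 7 and 8 and at 0.712 to 1.11 in SMA-adjacent regions. Of all tested probes, 0.0351% separated in that direction by the same ratio and 10.9% in the other. These ratios carry background in both terms and were not tested, and the marker list holds collagen genes that share regions and depth with the members.

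Markers of other cells also differed between regions. The mean of 12 smooth muscle markers was 1.11 to 3.40 times background in Pdpn-adjacent regions, against 3.60 to 18.0 times background in SMA-adjacent regions, summed levels of 13.3 to 40.8 and 43.2 to 216. For 6 of those 12 genes the groups did not overlap. At an unadjusted edgeR p under 0.05, 10 of these 12 and 7 of the 11 fibroblast markers were lower. The 12 luminal epithelial markers had means of 1.11 to 2.96 and 1.33 to 1.67 times background. Pdpn-adjacent regions 4 and 8 held the highest, 2.62 and 2.96. Pdpn-adjacent regions 2, 3, 7 and 11 read 1.27, 1.69, 1.33 and 1.11. Of these markers, 11 were higher at an unadjusted p under 0.05 (1 after adjustment). The 10 skeletal muscle markers had means of 1.02 to 85.4 and 1.07 to 11.6 times. Pdpn-adjacent region 3 read 85.4 and region 7 read 40.2. Pdpn-adjacent regions 2, 4, 8 and 11 read 5.33, 1.02, 5.15 and 1.69. Each was below SMA-adjacent regions 5 and 10 (11.6 and 8.92). At that p level, 8 skeletal muscle markers were higher. Blood endothelial markers, 10 genes, had means of 0.952 to 3.28 and 1.70 to 3.98 times, and 4 were lower at that level, with 9 of 10 log2 fold changes below 0. The 8 macrophage markers had means of 0.952 to 2.91 and 1.98 to 3.11 times, and 2 were lower at that level, with 8 of 8 log2 fold changes below 0. The 10 adipocyte markers had means of 1.33 to 53.8 and 18.5 to 58.9 times, with 0 lower or higher at that level, and the 6 basal epithelial markers 1.00 to 4.00 and 1.18 to 1.60 times, with 1 higher. Of the 8 lymphatic markers 1 was lower at that level. Each pair of ranges gives Pdpn-adjacent and then SMA-adjacent regions. Their part in the members' values was not tested.

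**Figure D5:**
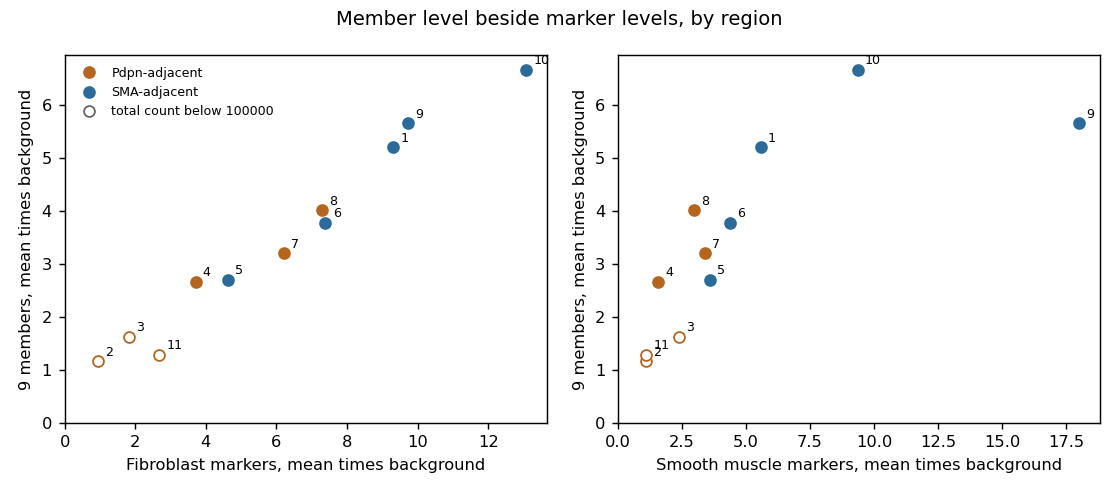
Mean level of the 9 members (y axis, times background) against the mean of fibroblast markers (left) and smooth muscle markers (right) in the same region, numbered by region. Open circles are regions with total counts below 100000. Pdpn-adjacent region 8 (4.02 times for the members) lies beside SMA-adjacent region 6 (3.78 times) on the fibroblast axis, at 7.28 and 7.39 times.

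Further family genes were near background. Of 9 other small leucine-rich proteoglycans and close relatives, 0 passed over all probes, 0 were lower and 0 higher at an unadjusted p under 0.05, and their median log2 fold change was -0.03. Tsku, which encodes the secreted signalling protein tsukushi, was the only one above the floor in most regions of a group. It averaged 69.2 ± 20.8 CPM (SD, n = 6) in Pdpn-adjacent and 73.8 ± 3.83 CPM (SD, n = 5) in SMA-adjacent regions, a fold change of -0.01 ± 0.17 SE on the log2 scale (edgeR adjusted p = 1.00). Kera and Epyc, the cornea and cartilage genes beside Lum, had log2 fold changes of 0.19 and -0.03.

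A list of 14 genes held fibrillar collagens and collagens that accompany them, with Col6a1, Col6a2 and Col6a3 among the latter. Of the 14, 0 passed over all probes, and 3 were lower and 0 higher at an unadjusted p under 0.05. For 11 the log2 fold change was below 0, and the median of the 14 was -0.31. Col1a1, the main chain of type I collagen, averaged 274 ± 209 CPM (SD, n = 6) in Pdpn-adjacent and 780 ± 239 CPM (SD, n = 5) in SMA-adjacent regions, a fold change of -1.40 ± 0.60 SE on the log2 scale (edgeR adjusted p = 0.764). Its partner chain Col1a2 had -1.19 ± 0.49 SE (edgeR adjusted p = 0.761), Col5a1, a chain of the collagen that starts fibrils, -0.50 ± 0.22 SE (0.765), and Col3a1 -1.29 ± 0.65 SE (0.853). With mice shared among regions, p-values for these collagens and for the genes named next are too small.

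Enzymes that build the sugar chains showed no common direction. Of 29 genes 0 passed, 2 were lower and 1 higher at an unadjusted p under 0.05, and the median log2 fold change was 0.04. Chst15 and Chst12, chondroitin sulfotransferases, were at -0.47 ± 0.17 SE (adjusted p = 0.664 in edgeR) and -0.36 ± 0.18 SE (0.826), Chst3, another, at 0.44 ± 0.16 SE (0.694), and Csgalnact2, an enzyme of chondroitin chain building, at -0.29 ± 0.18 SE (0.927). Neither Chst15 nor Chst3 was above the floor in any region. Of 22 growth factors, receptors and proteases that bind or cut these proteoglycans 0 passed and 2 were lower at an unadjusted p under 0.05 (median -0.10). Ccn2, a matricellular protein induced by transforming growth factor beta, averaged 35.0 ± 8.77 CPM (SD, n = 6) and 98.2 ± 57.6 CPM (SD, n = 5), with -1.42 ± 0.37 SE (edgeR adjusted p = 0.217). Bmp4, a bone morphogenetic protein, had -0.40 ± 0.17 SE (edgeR adjusted p = 0.761) and was not above the floor in any region. The ligand Tgfb3 had -0.40 ± 0.21 SE (edgeR adjusted p = 0.860), and the endocytic receptor Lrp1 -0.46 ± 0.25 SE (0.897). Of 22 large and cell-surface proteoglycans 0 passed and 2 were lower at an unadjusted p under 0.05 (median -0.11). Sdc2, a syndecan, had -0.70 ± 0.26 SE, Srgn, the serglycin of secretory granules, -0.50 ± 0.21 SE, Cspg4, a pericyte proteoglycan, -0.35 ± 0.19 SE, and Ncan, a proteoglycan of brain matrix read below the floor everywhere, -0.42 ± 0.23 SE (edgeR adjusted p = 0.660, 0.761, 0.880 and 0.895 in that order).

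The probes most like the members in pattern were sought over the 8 regions above 100000 counts, by Pearson's r with the members' mean log2 CPM. The first 5 were Anxa6 (r 0.985, Spearman's rho 0.952), which encodes annexin A6, Timp2 (0.982, 1.00), a metalloproteinase inhibitor, Zfp644 (0.976, 0.952), Olfml2a (0.974, 0.929) and Rps6ka3 (0.974, 0.881). The points share libraries and depth, the regions share mice and the 5 were the best of 19935 probes, so these are descriptions. Of the 5, Timp2 was above the floor in 6 of the 8 regions, Anxa6 in 5, and the other three in 0.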

How the data were processed

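GeoMx Whole Transcriptome Atlas probes were counted in 11 captured regions of mouse mammary gland. The authors deposited raw counts per probe, with no normalization, judged from the values (whole numbers with totals that differ between columns). Steps from reads to counts are not given in the sources used here, and neither is the reason why no value is below 1. The deposited target annotation gives probe positions on GRCm38.p6.

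Endogenous probes (19965) kept by filterByExpr (19935) were tested with edgeR 4.0.16 in R 4.3.3 (TMM scaling, quasi-likelihood test, two-sided, Benjamini-Hochberg adjustment over all tested probes, threshold 0.05). The 210 negative probes stayed out of library sizes and tests. Fold changes are Pdpn-adjacent minus SMA-adjacent, SEs are those implied by the p, and CPM uses TMM-scaled totals. Exact permutation tests compared mean log2 CPM per region. Alternatives were DESeq2 1.42.0, limma-voom (limma 3.58.1), other scalings, filters, a covariate, and regions left out. Named genes were the 9 members, family genes above the floor, the 4 smallest p of each related list, and the 5 probes most alike. Neighbours of the members (Ecm2, Kera, Epyc, Optc) were added for position. The members and lists were chosen with earlier results of these data known.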

Additional observations from a re-analysis of the deposited data

Results flagged for a closer look

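Among 18 sets of values (9 members in 2 groups), 2 held a region far from the others of its group, by Dixon's gap criterion at the 95% level, and about 1 in 20 would do so by chance. Omd stood at 74.0 CPM in Pdpn-adjacent region 3, on 6 counts, where the other Pdpn-adjacent regions stood at 27.9 to 39.9 CPM. Aspn stood at 65.3 CPM in SMA-adjacent region 9, on 189 counts, where the other SMA-adjacent regions stood at 41.2 to 45.1 CPM.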

How the results depend on the processing

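Past the threshold stood 2 probes, and 1 to 53 when each region in turn was left out. There was 1 with scaling on the negative probes, with only probes above the floor in 5 regions, with limma-voom, without regions 2, 3 and 11, and without regions 2 and 11. There were 17 in DESeq2 (16 lower), 13 without regions 4 and 8, 14 without regions 3 and 7, 11 with the level of the negative probes as covariate, and 57 with 1 subtracted from every count. Members past the threshold numbered 0, and 0 to 1 over the regions left out, with Ogn passing without SMA-adjacent region 5. They numbered 1 in DESeq2 (Bgn) and 1 with 1 subtracted (Ogn). Members lower at an unadjusted p under 0.05 numbered 6, and 3 to 7 over the regions left out. They numbered 2 of the 5 left by the floor filter, and 3 each in limma-voom, without regions 2, 3 and 11, without regions 2 and 11, with the covariate, and with 1 subtracted. Members with an exact permutation p under 0.05 numbered 5, 3 to 6 over the regions left out, and 2 without regions 2, 3 and 11. Members whose groups did not overlap numbered 0, and 0 to 2 over the regions left out. They numbered 2 without regions 2, 3 and 11, 2 without regions 4 and 8, 1 without regions 3 and 7, and 1 without regions 2 and 11. In the 8 regions left without regions 2, 3 and 11, 2.02% of all tested probes were lower without overlap, against 0.391% over all 11 regions. Separation was thus commoner over fewer regions. No share of all probes is given for the other alternatives, nor for the unadjusted p and permutation counts in them, so those counts have no background beside them. Pathway list genes past the threshold numbered 0, 0 to 1 over the regions left out, and 1 with 1 subtracted. The log2 fold change of Omd, -0.04, was -0.10 to 0.0105 over the regions left out, 0.10 in limma-voom and 0.00637 without regions 4 and 8. That of Fmod, -0.20, was 0.0331 in limma-voom. The cause of these shifts was not tested. The other 7 members had a log2 fold change below 0 in every alternative fitted, and the median over all 9 was -0.67 to -0.46 over the regions left out, -0.39 in limma-voom and -0.80 without regions 4 and 8. Single members moved by over 1.5 times at Dcn -0.66 and Prelp -0.38 with the covariate, Prelp -1.26 and Fmod -0.02 without regions 4 and 8, Podn -0.33 with the floor filter, and Fmod -0.09 without SMA-adjacent region 10.

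Subtracting 1 and leaving out regions 2 and 11 were chosen after seeing the data. Permutation counts were not run with 1 subtracted. No paired analysis was possible because the region numbers are unique to each region and no label ties regions to mice. In regions 2, 3 and 11 a member at the lowest count could still stand at up to 112, 37.0 and 103 CPM.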
